A study of Homo sapiens with 8 samples.

Results

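The peaks described here are the rows of the deposited m6A peak table whose name is an Ensembl gene ID with a number of at least 223000. High numbers mostly belong to genes annotated late, among them noncoding RNAs, antisense RNAs, pseudogenes and readthrough genes. The rule uses only the number in the ID and no measured value. It took 134 of the 1262 listed peaks (10.6%), under 122 of the 1103 IDs. The lowest-numbered ID inside the rule was ENSG00000224430, with a peak of 24.9-fold enrichment. The highest-numbered ID outside it was ENSG00000215835, which has 2 peaks, the first with a fold enrichment of 6.61. Peaks that share bases with a peak of a lower-numbered ID were kept apart from those that do not, because the counting strand is not given in the sources used here.

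MeRIP-seq had been done on ARPE-19, a human retinal pigment epithelium (RPE) cell line. Cells carried a lentivirus that silences METTL3 (sh-METTL3) or a scrambled control (sh-Control), and both lines had been selected as stable transformants. All cells were stimulated with 1 μg/ml lipopolysaccharide (LPS) for 24 h, so no library comes from unstimulated cells. Each group has 3 libraries from m6A immunoprecipitation (IP) and 1 input library, 8 in all. The deposited table is limited to peaks that differed between the groups in the authors' comparison. The table used here gives no value by library, so depth and replicate spread are unknown and no test was run. Each peak carries its enrichment, the fold of IP over input, and a p-value, both as the authors gave them. Which libraries these values combine is not given in the sources used here, and they were read as taken over both groups.

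N6-methyladenosine (m6A) is a methyl mark placed on RNA by a complex whose catalytic subunit is METTL3. It is found on messenger RNAs and on long noncoding RNAs (lncRNAs), most often at an adenosine followed by cytosine, and the antibody pulls down fragments that hold it. An antisense RNA is read from the strand opposite to another gene, a readthrough RNA joins neighbouring genes, and a processed pseudogene is a copy of another gene's RNA, so each of them can resemble or overlap a coding transcript.

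Sequence under the peaks could be read only where a peak reached the start window of a RefSeq transcript. RefSeq (GRCh38.p14) start windows run from 250 bases before to 50 bases after the start. For lncRNAs on the strand of the peak, 7 member peaks reached such a window. The stretches shown are 6 of these, with letters that match the m6A motif in capitals. The other, at LINC00472, has only 14 bases under the peak, with 0 matches on either strand, and is not shown. The last 14 bases of the start windows hold a match in 10.5% of all windows. The motif has 5 letters, with G or A at the first and at the second place, then AC, and A, C or T at the last place, which gives 12 forms. Each sequence is 5′ to 3′ on the strand of the peak, and stretches inside the span of a coding gene were shortened to the 30 bases with the most matches.
NORAD, minus strand, chr20:36050911-36050960: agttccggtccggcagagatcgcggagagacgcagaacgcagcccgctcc
SNHG22, plus strand, chr18:49814023-49814072: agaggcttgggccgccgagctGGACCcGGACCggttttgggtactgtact
TGFB2-AS1, minus strand, chr1:218345649-218345678: cgcaggggctcccttGGACTcccacccttt
SBF2-AS1, plus strand, chr11:9780512-9780541: ttgagctacaAAACCaaatgacagtGAACC
VIM-AS1, minus strand, chr10:17229956-17229985: ttctcccggaggcgcatgatgtcctcggcc
NUMA1-AS1, plus strand, chr11:72014291-72014320: ccacgaagcttggccaactcctggtccttg
The first 50 transcribed bases under the peak of SNHG22 hold 2 matches, those of TGFB2-AS1 hold 1, and those of NORAD, VIM-AS1 and NUMA1-AS1 hold 0. On the other strand the same stretches hold 1 match for SNHG22, 0 for TGFB2-AS1, 2 for NORAD, 1 for VIM-AS1 and 1 for NUMA1-AS1. Of the 35116 RefSeq start windows, 40.8% hold at least 1 of the motifs in the first 50 transcribed bases, and of the 12917 lncRNA start windows 47.0% do. The SBF2-AS1 stretch comes from the start window of LOC105369149, of which 171 bases lie under the peak, with 2 matches on the strand of the peak and 5 on the other. LOC105369149 is not among the genes that this peak touches, so the stretch may lie ahead of that start. The last 171 bases of the start windows, which may be another part, hold a match in 80.1% of all windows. These matches are thus a description of the letters only.

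The name of the group was checked against RefSeq gene types. Of the 134 peaks, 70 (52.2%, 95% Wilson interval 43.8% to 60.5%, counting error only) touched a lncRNA or pseudogene that is on their strand or has no strand given. The same held for 54 of the 1128 peaks of lower-numbered IDs (4.79%). A further description is the strand of coding genes. Here 34 peaks (25.4%, 18.8% to 33.4%) touched a coding gene on the opposite strand and none on their own, against 8 of 1128 (0.709%). Either of these held for 85 of the 134 peaks (63.4%, 55.0% to 71.1%) and for 55 of the 1128 others (4.88%). Strand is given for 27305 of the 59792 RefSeq genes, and if only those with a strand are counted, 36 peaks instead of 70 touched a noncoding or pseudogene RefSeq gene on their own strand. With the same limit on strand, chosen after seeing the data, 55 of the 134 peaks (41.0%, 33.1% to 49.5%) instead of 85 were noncoding or antisense. Whether these make up most of the group therefore depends on genes without a given strand.

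When each peak was assigned to the gene type that holds at least 50% of its bases, 37 peaks lay in lncRNAs and 23 in pseudogenes. Where several types held a peak, readthrough was taken first, then lncRNA, then pseudogene, then coding. Some lncRNA and pseudogene peaks therefore touch a coding gene as well. The peaks at RPL7AP22 and FOSL1P1, for example, touch PKP4 and LARP1B on their own strand. Coding genes on the same strand held 34 peaks, coding genes on the opposite strand 15, and coding genes without a given strand 12. A readthrough gene held 8 peaks, 1 lay opposite to a lncRNA only, and 4 lay in no RefSeq gene. For 45 of the peaks the type rests on a gene without a given strand, so these are less certain.

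Across the group, fold enrichment was close to that of the other peaks. The median was 7.92 (95% order-statistic interval 6.44 to 11) for the 134 peaks, with quartiles of 3.66 and 24.7, and 8.54 (7.80 to 9.56) for the 1128 others. The range was 1.46 to 192, inside the range of the others, 1.16 to 462. A fold enrichment under 2 was listed for 11 of the 134 peaks (8.21%, 4.65% to 14.1%) and for 42 of the 1128 others (3.72%, 2.77% to 4.99%). At the other end, 38 peaks (28.4%) had at least 20-fold enrichment, against 25.6% of the others. The median width, the sum of the exon blocks, was 343 nt (294 to 411) against 420 nt (391 to 449), with intervals that overlap. Several blocks were listed for 41 of the 134 peaks (30.6%) and for 36.4% of the others. The peak p-value was listed at 0 for 13 of the 134 peaks (9.70%) and for 13.6% of the others. Its largest value in the group was 0.0013, at the pseudogene SHC1P1.

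**Figure D1:**
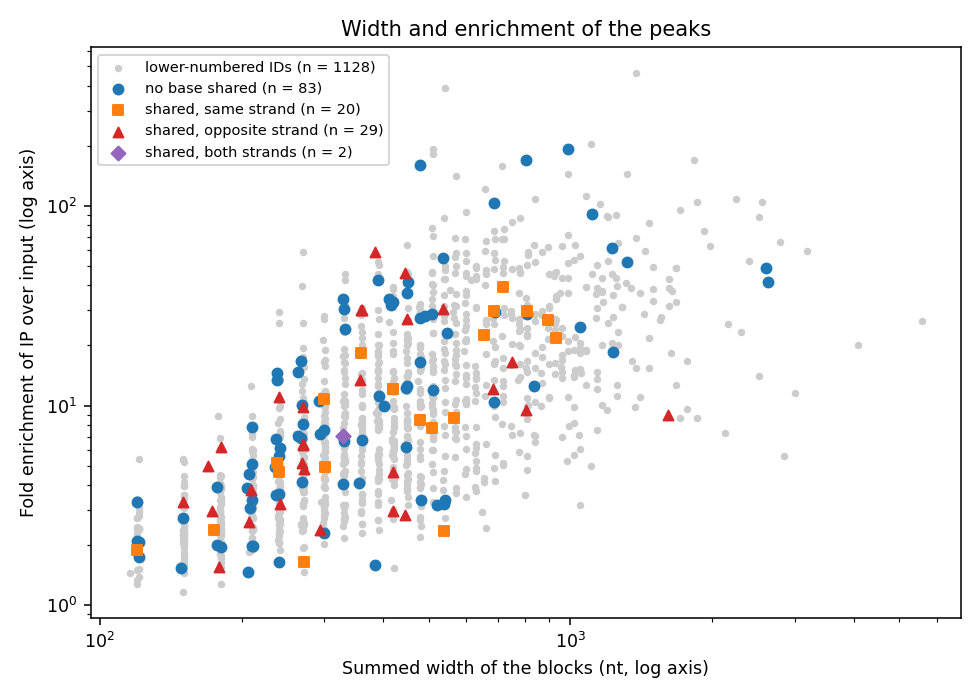
Fold enrichment of IP over input against summed block width in nt, both on log axes, for the 1128 peaks of lower-numbered IDs (grey) and the 134 peaks of high-numbered IDs, coloured by whether they share bases with a lower-numbered ID. Wider peaks had larger enrichment in both sets, and the high-numbered peaks lie within the cloud of the others.

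Width and enrichment went together, as the plot of width and enrichment shows. Spearman's rho was 0.68 over the 134 peaks and 0.73 over the 1128 others, given as a description because the peaks share the same libraries. Among peaks of at most 400 nt, the median fold enrichment was 4.96 (3.90 to 6.63) for the 77 high-numbered peaks and 4.22 (3.85 to 4.63) for the 534 others. Among wider peaks it was 23.2 (12.2 to 29.4) for 57 high-numbered peaks and 16.7 (15.3 to 18.8) for 594 others. The intervals overlap in both width ranges.

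NEAT1, the lncRNA that scaffolds paraspeckles, had 5 rows under ENSG00000245532, the most of any high-numbered ID. The row at chr11:65422774-65425406 was 2633 nt wide with a fold enrichment of 41.5. The row at chr11:65422798-65425405 was 2608 nt wide with a fold enrichment of 48.9, and all its bases lie in the first row, so the same region is listed again. Both begin at the start of the gene, the first 24 bases ahead of the RefSeq start. Their peak p-values are both listed at 0. These were the widest peaks of the group. The other 3 rows lie near the far end of the 22743-nt gene. The row at chr11:65442394-65442574 had a fold enrichment of 1.96, and that at chr11:65444102-65444312 had 1.98. The row at chr11:65444371-65444851, with 3.35, holds all 100 bases of the miRNA gene MIR612, so reads there may belong to either. In the gene's coordinates these peaks start 19596, 21304 and 21573 nt after the start, and no peak was listed in between.

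NORAD, a lncRNA that binds Pumilio proteins, had 1 peak at chr20:36049730-36050960 (ENSG00000260032), with a fold enrichment of 18.5 and a width of 1231 nt. It covers the first part of the 5343-nt gene, beginning at the start site whose bases are shown above. TUG1 differed, because its 3 high-numbered IDs lie on both strands. ENSG00000253352, on the strand of TUG1, had a peak at chr22:30969514-30970023 with a fold enrichment of 12, from 249 to 758 nt after the gene start. RefSeq types TUG1 as protein coding, although it is best known as a lncRNA. ENSG00000269987 and ENSG00000269972, on the opposite strand, had fold enrichments of 23.2 and 14.8 toward the end of the 10131-nt gene. The span of ENSG00000269972 lies inside that of ENSG00000269987 but their blocks share no base, and neither shares a base with a lower-numbered peak. The ID on the strand of TUG1 is itself high-numbered, so that comparison leaves TUG1 out. As the counting strand is not given, reads of these opposite-strand IDs may belong to TUG1.

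**Figure D2:**
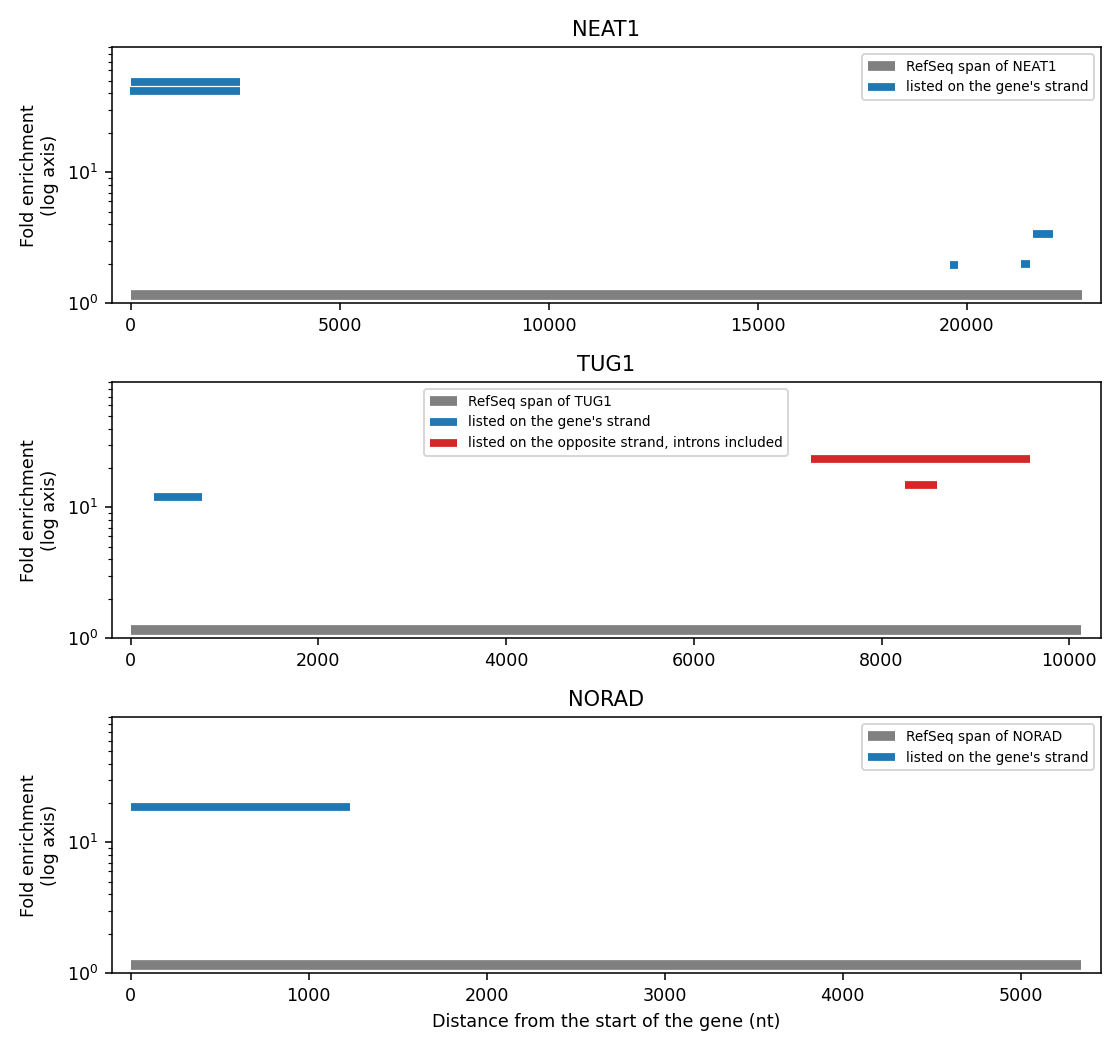
Listed peaks along NEAT1, TUG1 and NORAD, drawn as bars by distance from the gene start in nt (x axis) and fold enrichment of IP over input (y axis, log), with the RefSeq span in grey. NEAT1 has its most enriched rows at the start and rows under 4-fold near the end, and NORAD has 1 peak at its start. TUG1 has the most enriched ID listed on the opposite strand, where reads may belong to TUG1 itself.

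FTX, a lncRNA of the X-inactivation centre, had 1 peak of 1048 nt with a fold enrichment of 24.9 (chrX:74161242-74162289), which also lies in the pseudogene MKRN5P. NR2F1-AS1, read from beside the transcription factor gene NR2F1, had a peak at chr5:93580544-93580753 with a fold enrichment of 5.09. LINC00472 had 2.30 at chr6:71420410-71420709. None of these shared a base with a lower-numbered peak. SNHG22, a host gene of the small RNA SCARNA17, had a fold enrichment of 6.19, and its peak of 448 nt covers all 421 bases of SCARNA17, so reads there, and the stretch shown above, may belong to either. MIRLET7IHG, the host RNA of the miRNA let-7i, had 6.75.

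Of the 37 lncRNA peaks, 26 shared no base with a lower-numbered ID. Their median fold enrichment was 9.62 (5.09 to 30.5), and it was 6.91 (4.90 to 13.5) for all 37 lncRNA peaks, these 26 included. The 26 hold the 5 NEAT1 rows, in which a region is listed again. For the 22 lncRNA peaks of lower-numbered IDs the median was 11.55 (5.63 to 28.5). A coding gene on the opposite strand was touched by 16 of the 37.

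Antisense and divergent lncRNAs were among those without a shared base. A divergent transcript starts near a coding gene and runs away from it on the other strand. MAP4K3-DT had a fold enrichment of 42.4 (chr2:39599398-39599787), and CTDP1-DT had 31.9 (chr18:79677494-79677908). SBF2-AS1, opposite to SBF2, had 30.5 in 3 blocks that add up to 330 nt. RARA-AS1, opposite to the retinoic acid receptor gene RARA, had 27.4 at chr17:40341076-40341553. These 4 lay above the upper quartile of the whole group, 24.7. Lower values were listed too. PHLDA1-AS1 had 1.74. TGFB2-AS1, opposite to the growth factor gene TGFB2, had 3.90 in 2 blocks of 177 nt in all. C1QTNF7-AS1, opposite to CPEB2, had 4.90 in 3 blocks. For TGFB2 and CPEB2, no listed lower-numbered peak shares bases with the antisense one. Reads of the opposite gene may still lie under these peaks, since only peaks that differed between the groups are listed.

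**Figure D3:**
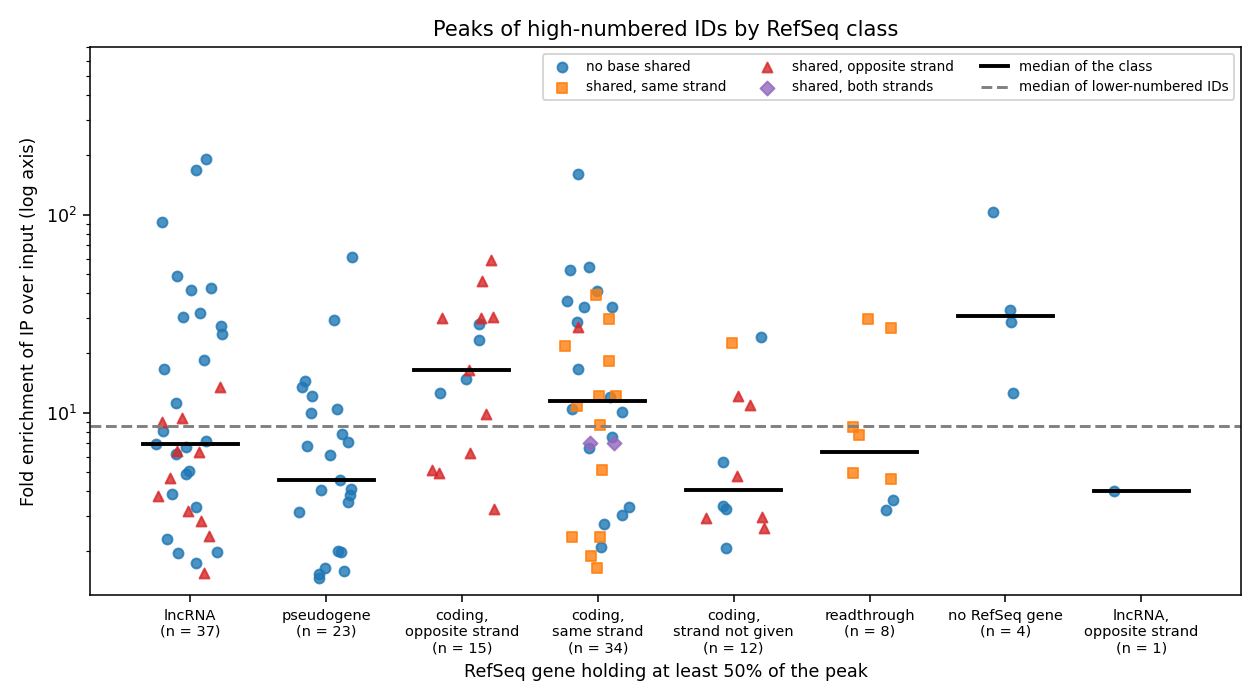
Fold enrichment of IP over input (log axis) of the 134 peaks by the RefSeq gene type that holds at least 50% of each peak, coloured by whether the peak shares bases with a lower-numbered ID, with class medians as black lines. The pseudogene and unstranded coding classes have the lowest medians among classes of 8 or more peaks. Both have a median width of 240 nt, and the dashed line is the median of lower-numbered IDs, 8.54.

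Of the 134 peaks, 83 shared no base with a listed peak of a lower-numbered ID (61.9%, 53.5% to 69.7%). Their median fold enrichment was 8.04 (6.19 to 12.6), against 7.71 (5.14 to 11) for the 51 that did share. The 6 with the largest values were mostly not in coding genes. ENSG00000275216, in the lncRNA LOC130494219, had the largest value of the group, 192, in a peak of 988 nt, above 99.6% of all listed peaks. ENSG00000239332, in LINC01119, had 169. ENSG00000224531 had 161, on the strand of the coding gene SMIM13. These 3 stood apart from the next values. ENSG00000273270 had 103 and lies in no RefSeq gene, so its identity is uncertain. ENSG00000272668, in LOC107985216, had 91.6. ENSG00000281649, in the pseudogene EBLN3P, had 61.4. The peaks of the 6 were 478 to 1225 nt wide, all wider than the median of the group.

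Except for NEAT1 and an antisense RNA, the 6 smallest values among these 83 belonged to pseudogenes. RPS19P3 had 1.46, SHC1P1 had 1.53, RPL3P7 had 1.59 and YBX1P1 had 1.64. PHLDA1-AS1, opposite to PHLDA1, had 1.74. A NEAT1 row followed with 1.96. RPS19P3 and RPL3P7 copy ribosomal protein genes, and SHC1P1 and YBX1P1 copy an adaptor protein gene and a nucleic-acid binding protein gene.

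On the strand of a coding gene, 18 of the 34 peaks shared no base with a lower-numbered ID, and their median fold enrichment was 14.3 (6.63 to 36.8). By RefSeq these peaks lie in the span of a coding gene, introns included, in spite of their late numbers. Such a position does not show that the transcript is coding. After SMIM13, the largest values were 54.6 for ENSG00000273820 at USP27X, a deubiquitinase gene, and 52.4 at PABPC4L. ENSG00000225830, at ERCC6, a gene of transcription-coupled DNA repair, had 41.4. ENSG00000256087, at the zinc finger gene ZNF432, had 36.8. ENSG00000257065, at PHACTR2, and ENSG00000279095, at the poliovirus receptor gene PVR, both had 34.2. ENSG00000253953 had 28.8 in a peak of 808 nt inside the protocadherin gamma cluster, where the genes overlap each other, so the gene cannot be told from the position. The smallest were 2.09 for ENSG00000262633, whose 3 blocks reach from LRRC37A2 to GOSR2, and 2.73 for ENSG00000277258 at PCGF2, a Polycomb gene.

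Opposite to a coding gene, 4 of 15 peaks had no lower-numbered partner. Besides the 2 at TUG1, ENSG00000258504 had 28.1 in 3 blocks opposite to SLC25A29, a mitochondrial carrier gene, and ENSG00000257337 had 12.6 opposite to the translation initiation factor gene EIF4B. No peak of those genes themselves shares bases with them in the table. The other 11 did have a partner, and the 15 together had a median of 16.5 (6.23 to 30.2). For the 9 of them of at most 400 nt, a limit chosen after seeing the data, it was 9.81. The 4 peaks outside RefSeq genes had 12.6, 28.8, 32.9 and 103, under ENSG00000273038, ENSG00000258976, ENSG00000279821 and ENSG00000273270. They were 420 to 835 nt wide.

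Pseudogenes held 23 peaks under 23 IDs, all without a shared base with a lower-numbered peak. Their median fold enrichment was 4.55 (3.16 to 9.99) and their median width 240 nt. For the 18 of at most 400 nt, a limit chosen after seeing the data, the median was 4.105. That was close to 4.22 for the 534 lower-numbered peaks of that width. A peak of 1 block was listed for 22 of the 23. For 14 a coding parent could be read from the symbol, and for 7 of these the parent, 6 genes in all, has a listed peak of its own. The pseudogene had the lower value for 6 of these 7 and the higher value for 1, HMGA1P8. PLA2G12AP1 had 7.80 and PLA2G12A had 10.9. HMGA1P8 had 10.5 and HMGA1P2 had 2, while HMGA1 had 3.23. The HMGA1P8 peak also lies on the strand of the coding gene C2orf81, and that of RPS19P3 on the strand of SNX6. SHC1P1 had 1.53 and SHC1 had 12.5. EEF1DP1, with 4.12, was close to EEF1D, with 4.23. RPS19P3 and YBX1P1, with 1.46 and 1.64, stood beside 1.93 for RPS19 and 2.59 for YBX1. Reads of a parent and its copy, or of a copy and its host gene, can be shared, and how such reads were counted is not given in the sources used here, so these values are uncertain.

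Bases were shared with a lower-numbered ID by 51 of the 134 peaks (38.1%, 30.3% to 46.5%). Among lower-numbered peaks, 41 of 1128 (3.63%) shared bases with another lower-numbered ID, and 48 (4.26%) with a high-numbered one. The shared strand was the same for 20 of the 51, the opposite for 29, and both for 2. Sharing was listed for 11 of the 15 peaks in the class opposite to a coding gene, 6 of the 8 readthrough peaks, 16 of 34 on the strand of a coding gene, 7 of 12 in coding genes without a given strand, and 11 of 37 in lncRNAs. Of the 23 pseudogene peaks and the 4 outside RefSeq genes, 0 shared a base. Since reads may have been counted without strand, the 31 peaks with an opposite-strand partner are uncertain as values of the antisense RNA. Antisense peaks without a listed partner are uncertain too. Peaks of the opposite gene that did not differ between the groups are not listed.

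The 51 peaks formed 53 pairs with lower-numbered peaks. In the 22 same-strand pairs, the larger fold enrichment was a median of 1.03 times the smaller, and in the 31 opposite-strand pairs 1.21 times. The values differed by no more than 1.1 times in 18 of 22 same-strand pairs and 9 of 31 opposite-strand pairs. Where at least 80% of both peaks was shared, the median ratio was 1.03 in 15 same-strand pairs and 1.02 in 12 opposite-strand pairs. With less sharing it was 1.04 in 7 same-strand and 1.48 in 19 opposite-strand pairs. Over the 53 pairs, Spearman's rho between the smaller shared share and the absolute log2 ratio was -0.61, a description since pairs share libraries and bases. Of the pairs with at least 80% of both peaks shared, 14 of 15 on the same strand and 7 of 12 on opposite strands differed by no more than 1.1 times. The largest ratio among those opposite-strand pairs was 1.52, for ENSG00000279569 and MTSS2.

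**Figure D4:**
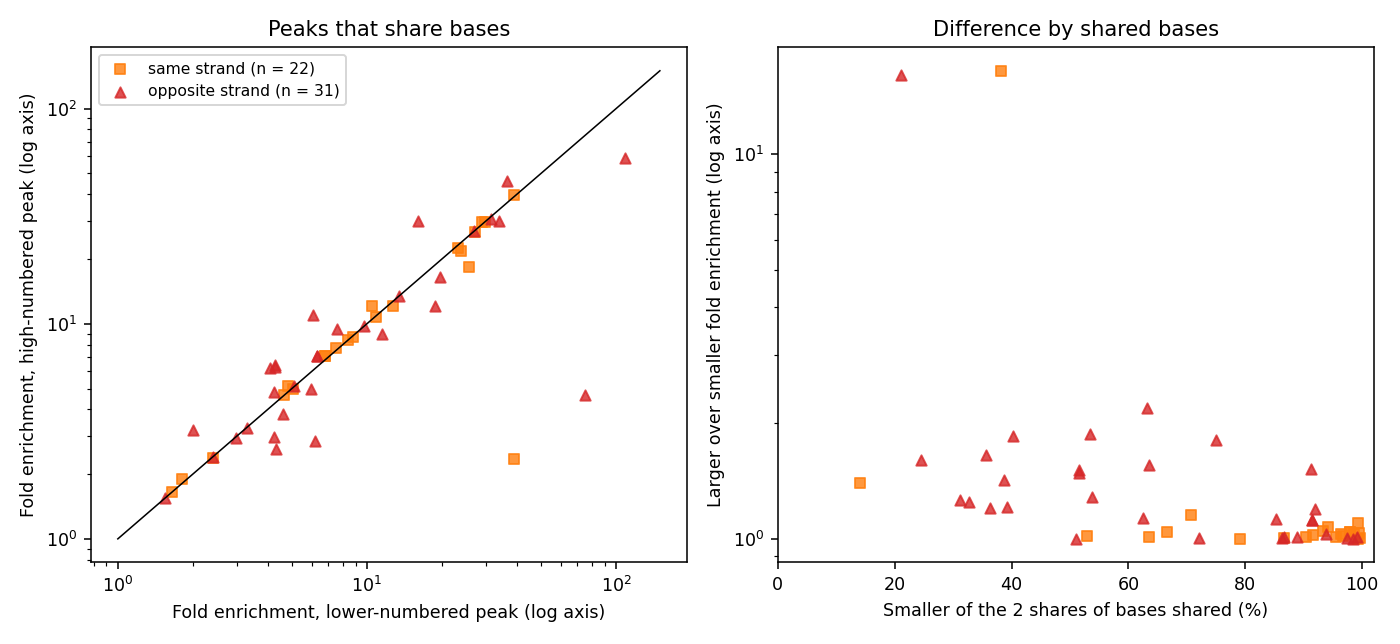
Left, fold enrichment of each high-numbered peak against that of the lower-numbered peak it shares bases with, on log axes, with the line of equal values, and right, the larger over the smaller fold enrichment (log axis) against the smaller of the 2 shared shares in percent. Pairs with at least 80% of both peaks shared differ by at most 1.52 times, and the 2 pairs that differ by over 16 times share under 40% of the lower-numbered peak.

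The 5 opposite-strand pairs ranked first by the share of the high-numbered peak's bases all had that whole peak inside the lower-numbered one. The share of the lower-numbered peak was smaller, 53.7% for NUMA1 and 63.6% for KCTD14, so by the smaller of both shares other pairs rank higher. ENSG00000261845, opposite to the forkhead gene FOXK2, had a fold enrichment of 30.2 and the FOXK2 peak 34.0. ENSG00000254829 had 12.1 and the peak of KCTD14 had 18.8. NUMA1-AS1 (ENSG00000251143), at chr11:72014291-72015900, had 8.93 in a peak of 1610 nt, and NUMA1, the spindle-pole protein gene, had 11.5 in a peak of 2997 nt. ENSG00000284934 and ENSG00000256861 are listed with identical coordinates (chr12:122208197-122208525) and the same value, 7.06. They lie on the strand of DIABLO, whose peak had 6.79, and opposite to B3GNT4, whose peak had 6.30. Both IDs thus name 1 region, which 2 lower-numbered IDs cover too.

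Other antisense pairs had closer values. VIM-AS1 (ENSG00000229124) had 1.55 at chr10:17229807-17229985 and VIM, the vimentin gene, had 1.55, with 178 bases shared. The other VIM-AS1 peak, at chr10:17215012-17215279, shares no base with a lower-numbered peak and had 16.7. The values listed under this ID thus differed by 10.8 times, but the lower one cannot be told apart from VIM. ENSG00000272476 had 9.81 opposite to SEC63 with 9.69, and ENSG00000254740 had 30.6 opposite to the deubiquitinase gene USP2 with 31.5. ENSG00000260276 had 13.5 and CARHSP1 13.5, with 51.5% of the high-numbered peak shared.

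Some pairs did not match. ENSG00000265489 had 4.67 and the MYOCD peak 75.1, though 96.9% of the high-numbered peak lay inside it. That share was 21.1% of the MYOCD peak. ENSG00000262211 had 58.8 and IL6ST, the shared receptor subunit for IL-6 family cytokines, had 109. ENSG00000254192 had 30 and the axon-guidance gene SLIT3 had 16.0. KRT7-AS had 2.84 and KRT7 had 6.20. ENSG00000266283 had 46.3 opposite to GATA6, a transcription factor gene, with 36.6. The high-numbered peak was larger in some of these and smaller in others.

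Several peaks were listed for 9 of the 122 high-numbered IDs (7.38%, 3.93% to 13.4%), against 11.4% of lower-numbered IDs. Besides NEAT1 and VIM-AS1, ENSG00000241978 at PALM2AKAP2 had peaks of 2.36 and 39.5, a ratio of 16.7. They share 95.4% and 99.3% of their bases with 1 peak of a lower-numbered ID in the same gene, which had 38.9. ENSG00000256028, at ARL6IP4, had 12.1 and 1.89. Its partners on the same strand had 10.5 and 1.81. ENSG00000257315, on the strand of ZBED6 and ZC3H11A, had 29.7 and 12.1, beside 28.9 and 12.7 for the lower-numbered ID there. So the order within these IDs was that of their partners, apart from ENSG00000241978.

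ENSG00000279569, opposite to MTSS2, had 6.23 and 16.5, with 4.09 and 19.7 for MTSS2. ENSG00000275832, in ARHGAP23, had 7.53 and 16.6 with no shared base. The readthrough RAB4B-EGLN2 (ENSG00000269858) had 8.42 and 3.23, of which the first shares 99.8% of its bases with the EGLN2 peak, with 8.38. RNF213-AS1 (ENSG00000263069) had 6.32 and 6.44 in rows that share 263 bases, so the region is listed again, and the RNF213 peak had 4.27. Of the 9 IDs, NEAT1 and RNF213-AS1 thus had rows that overlap each other.

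Readthrough genes held 8 peaks, with a median fold enrichment of 6.33. STX16-NPEPL1 had 29.8, as had STX16, and HNRNPUL2-BSCL2 had 26.7 with 27.1 for HNRNPUL2. PEDS1-UBE2V1 had 7.71 and UBE2V1 7.49. These IDs had nearly the value of the coding gene whose exons they contain, and reads of the 2 cannot be told apart. Among the 5 widest peaks of the group, beside NEAT1, NUMA1-AS1 and NORAD, was that of the coding gene PABPC4L (ENSG00000254535), with 52.4 over 1319 nt at chr4:134199898-134201216 and no shared base.

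Genes of the m6A and paraspeckle machinery were set beside the lncRNAs. A listed peak was found for 1 of 8 writers, WTAP, with a fold enrichment of 68.6. Of the 20056 coding genes in RefSeq, 951 (4.74%) gave their name to a lower-numbered ID with a listed peak. Of 2 erasers and 10 readers, 0 had one. Among the paraspeckle protein genes described here, TARDBP (25.6) and SMARCA4 (1.77 and 3.33) had peaks. ENSG00000277726, at TARDBP, had 18.3 and shares 109 bases with the TARDBP peak. Of 13 RPE markers, OTX2 (36.8) and KRT8 (2.29) had peaks, and of 5 markers of other cell types 0 did, beside the 4.74% of all coding genes. The table lists peaks that differed between the groups, not levels, so a missing gene says nothing about its expression and the cell type could not be checked from it.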

How the data were processed

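The submitters' processing notes name CASAVA, fastp 0.19.11 and MACS2 2.1.0 with build hg38. The table's column names instead have the form of the R package exomePeak, so which program gave the peak values is uncertain. The aligner, thresholds, annotation and counting strand are not given in the sources used here. The p-value and the fold enrichment (ratio of IP to input) of each peak are deposited values, given by the authors without naming the libraries they combine, and were read as taken over both groups. Of its 18 columns, 3 hold the authors' own comparison (log2 fold change, log10 p-value and q-value) and were not used. Positions were made 1-based, and shared bases were counted over exon blocks, with 1 base sufficing. Gene names and types came from RefSeq GRCh38.p14 by position in the whole gene span, introns included, and strand from its start windows. Of the 134 peaks, 130 touched a RefSeq gene. A lower-numbered ID took the name of the only coding gene its peaks touch on their strand or, with none, of the only coding gene without a given strand. Shares have Wilson intervals, and medians order-statistic intervals, both at 95% and for counting error only. Named peaks were NEAT1, IDs with several peaks, the 6 largest and 6 smallest without shared bases, the 5 most shared opposite-strand pairs, the 5 widest and known lncRNAs. Others were chosen after their values were seen. Members and lists were chosen with earlier results of these data known. Some listed genes are not reported here. Interval arithmetic was tested on simulated data. Calculations ran in scipy 1.17.1, numpy 2.4.6 and pandas 2.3.3 under Python 3.11.15, and plots in matplotlib 3.10.9.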

Additional observations from a re-analysis of the deposited data

How the results depend on the processing

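No paired analysis was possible because the peak table used here gives no value by library and the results come from no test. For the same reason no replicate could be left out. Of 30 alternatives, 27 gave values inside the interval of the reported median or share, or counts within 1.5 times. With only peaks of at most 400 nt, the median fold enrichment of the 134 peaks moved from 7.92 to 4.96; the alternative keeps narrow peaks, which are less enriched. With only RefSeq genes whose strand is given, chosen after seeing the data, 36 instead of 70 peaks touched a noncoding or pseudogene RefSeq gene on their strand, and 55 instead of 85 did so or lay opposite to a coding gene only. For peaks opposite to a coding gene, the limit of 400 nt, chosen after seeing the data, moved the median from 16.5 to 9.81. Counting whole spans left the peaks that shared bases at 51, and asking for 50% of the bases gave 48. With the whole peak inside the gene, 24 instead of 34 peaks lay opposite to a coding gene with none on their own strand. With the same condition, 65 instead of 70 touched a noncoding or pseudogene RefSeq gene. Keeping overlapping high-numbered peaks once left 130. Depth is unknown, so the precision of each fold enrichment is unknown too.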
